A study of Mus musculus with 20 samples.

Results

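KLHDC3 and the other parts of the CUL2 ubiquitin ligase that read protein C termini were compared between HuR knockdown and control livers. The set comprised 9 genes, taken by symbol in both expression tables: the receptors KLHDC3, KLHDC2, KLHDC10, FEM1A, FEM1B and FEM1C, the scaffold CUL2 and the adaptors ELOB and ELOC. All 9 were found among 60607 human genes listed for the humanized livers, and all 9 mouse counterparts among 55335 mouse genes listed for the WT livers. The set was chosen by the measured difference of KLHDC3, which was lower with HuR knockdown in humanized livers and higher in WT livers, so this difference is given as a description without a test. The other 8 members were tested.

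RNA-seq had been run on 20 livers. The humanized group came from TK-NOG mice, an immune-deficient strain whose albumin-promoter thymidine kinase transgene lets ganciclovir remove the host hepatocytes. Ganciclovir had been given at 25 mg/kg at 8 to 9 weeks of age, human primary hepatocytes had been transplanted afterwards, and mice with serum human albumin above 0.5 mg/ml were used 8 to 12 weeks after transplantation. The host keeps its own mouse cells in such a liver, and the table used here lists human genes alone. WT mice were male C57BL/6 bought at 8 weeks of age. All mice received 2000000000 plaque-forming units of adenovirus in a vein, carrying either a LacZ control or an shRNA against HuR, and livers were taken 7 days later after a 4 h fast. There were 4 HuR knockdown (HuR KD) and 4 LacZ livers from humanized mice and 6 of each from WT mice. Human and mouse HuR were targeted by different shRNAs, so the species of the hepatocytes, the mouse strain and the shRNA cannot be told apart.

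A cullin-RING ligase is a modular enzyme that places ubiquitin on proteins. The cullin is a scaffold that holds a RING protein and its ubiquitin-charged partner at its C-terminal end and, through adaptors, an exchangeable substrate receptor at its N-terminal end. With CUL2, the adaptors are elongin B (ELOB) and elongin C (ELOC), and several receptors recognise a degron at the extreme C terminus of a protein. KLHDC2, KLHDC3 and KLHDC10 are kelch-repeat receptors for C termini that end in glycine or a related motif, and FEM1A, FEM1B and FEM1C are ankyrin-repeat receptors, mostly for C termini with arginine. HuR, encoded by ELAVL1, is an RNA-binding protein that favours U-rich and AU-rich stretches, most often in 3′ UTRs.

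Because HuR favours such stretches, the 3′ UTRs of the mouse members were searched for ATTTA and TTTTT on the transcribed strand, with overlapping matches counted, in the GENCODE annotation of GRCm38. Klhdc3 held few. Its longest 3′ UTR, of 536 bases on chromosome 17, had 0 ATTTA and 2 overlapping TTTTT, which lie in 1 run. The Elob 3′ UTR, of 129 bases, held neither. The other 7 members each held 2 to 5 ATTTA. Among 10976 protein-coding genes tested in WT livers, 69.7% held ATTTA and 77.7% held TTTTT, with a median 3′ UTR length of 1141 bases. Klhdc2 was the densest member with 7.30 ATTTA per kb, against a median of 1.33 per kb over those genes. Klhdc10 held 4 ATTTA in 4483 bases. The windows below show the T run of Klhdc3, the first ATTTA of Klhdc10, which was the tested member that fell in WT livers, and the first ATTTA of Klhdc2, the densest. Capitals mark the match, and all lie in 3′ UTR exons: chr17:46674916-46674944 on the minus strand, chr6:30450721-30450749 on the plus strand and chr12:69310443-69310471 on the plus strand.
Klhdc3: ttcagtggggagTTTTTtgggggagggca
Klhdc10: ctggaaatgttaATTTAaagagactcctt
Klhdc2: tacaataaatgtATTTAacaccagtacct
These matches are a description of letters and were not tested as HuR sites.

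Values are TPM, transcript abundances scaled for gene length and for the size of the library. Differences are HuR KD minus LacZ in mean log2(TPM + 1), which understates the change of low genes, and were tested with limma over all genes with a mean of at least 1 TPM in a table. A gene is called here at an unadjusted p under 0.05, the level the study used, and the Benjamini-Hochberg adjusted p over all genes is given beside it. Of 12738 human genes tested, 11.5% had an unadjusted p under 0.05, made up of 3.60% higher and 7.87% lower with HuR KD, and 0.212% had an adjusted p under 0.05. Of 15090 mouse genes tested, 16.0% had an unadjusted p under 0.05, 9.09% higher and 6.94% lower, and 0.888% had an adjusted p under 0.05. In humanized livers the share of calls that were higher was 31.3% on TPM and 49.5% after median-of-ratios scaling, while the median difference over all genes moved from -0.05 to 0.01. The labels name no batch, and p-values set a difference against the spread between these livers. The paper states that the human hepatocytes came from few donors, and the sample titles name no donor. Livers that share a donor could therefore not be told apart.

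Read counts recovered from the steps of the TPM values ranged from 2670469 to 20302454 per humanized liver and from 1423985 to 44668272 per WT liver. In the humanized set, LacZ 2 and HuR KD 4 were the deepest, with 19891555 and 20302454 reads, and were the most alike of all pairs (Spearman rho 0.947 over 6447 genes, against 0.79 to 0.931 for the other pairs), although they carry different viruses. In the WT set, LacZ 2 was the shallowest liver with 1423985 reads, and HuR KD 6 had 12960373. ELAVL1 was 3.46 ± 0.763 TPM (SD, n = 4) in humanized HuR KD livers and 5.67 ± 0.623 (n = 4) in LacZ livers, a fall to 61.0% of control (log2 difference -0.59, SE 0.17). The limma adjusted p was 0.214. Elavl1 was 4.91 ± 0.694 TPM (n = 6) against 9.498 ± 0.789 (n = 6) in WT livers, 51.7% of control (log2 difference -0.83). The limma adjusted p was 0.00105. In both sets every HuR KD liver lay below every LacZ liver for this gene.

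KLHDC3 is a receptor of the kelch family that binds C-degrons ending in glycine. In humanized LacZ livers it measured 38.2, 40.6, 37.2 and 35.8 TPM, and in HuR KD livers 14.6, 10.1, 12.7 and 24.2 TPM. Every HuR KD liver was below every LacZ liver, and the controls were the tighter group on TPM, with a coefficient of variation of 5.34% against 39.8%. The tightness depended on the scale. With TPM rescaled over protein-coding genes alone, the LacZ livers spread more widely for their mean, at 116 ± 18.2 (SD), from 94.7 to 139. The mean was 15.4 ± 6.13 TPM (SD, n = 4) with HuR KD and 38.0 ± 2.03 (n = 4) without, 40.5% of control, and the log2 difference was -1.32. The values rest on 118 to 901 reads in LacZ livers and on 46, 42, 119 and 541 reads in HuR KD livers 1 to 4. The HuR KD liver with the fewest reads, at 10.1 TPM, had a 95% Poisson interval of 7.26 to 13.6 TPM, which covers counting error alone. The highest HuR KD value, 24.2 TPM, belonged to liver 4, which resembled LacZ 2. Without these 2 livers the difference was -1.51.

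In WT livers the order was reversed. Klhdc3 measured 24.7, 26.2, 21.7, 26.1, 27.0 and 23.6 TPM in LacZ livers and 33.8, 30.7, 30.1, 30.2, 31.8 and 48.2 TPM in HuR KD livers. The groups did not overlap here either, with every HuR KD liver above every LacZ liver. The mean was 34.2 ± 7.01 TPM (SD, n = 6) against 24.9 ± 1.99 (n = 6), 137% of control, a log2 difference of 0.43. HuR KD 6 at 48.2 TPM was far above the other 5, which spanned 30.1 to 33.8 TPM, and without it the difference was 0.32. The LacZ 2 value rests on 40 reads and had a 95% Poisson interval of 18.7 to 35.6 TPM. Without both LacZ 2 and HuR KD 6 the difference was 0.34. For the background of these descriptions, 5.03% of the human genes tested had all HuR KD livers below all LacZ livers and 2.13% all above, and 1.23% and 1.25% of the mouse genes tested did so. The difference in humanized livers minus that in WT livers was -1.74 for KLHDC3, and it was not tested because the gene was chosen for it.

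**Figure D1:**
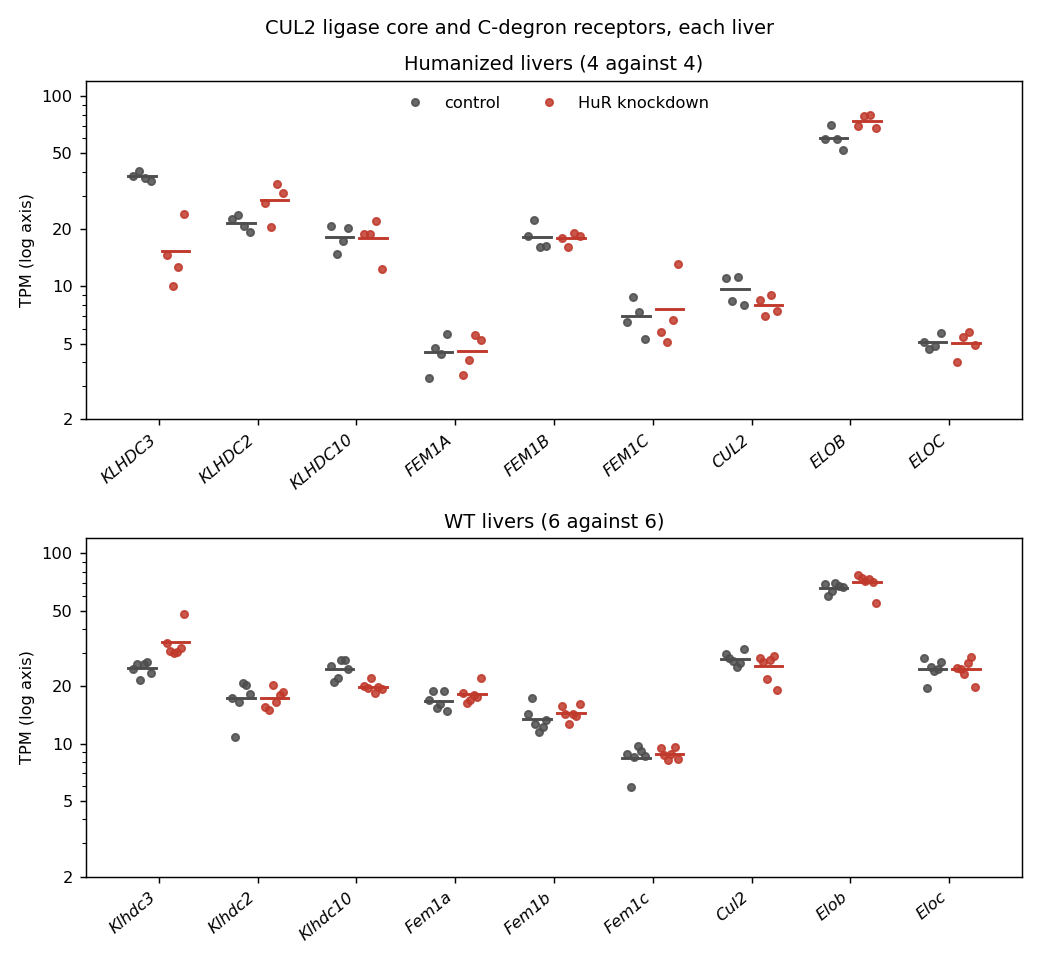
TPM of the 9 members in each liver on a log axis, humanized livers above and WT livers below. Each point is a liver, grey for LacZ control and red for HuR KD, and bars are group means. KLHDC3 is the sole member whose groups do not overlap, with HuR KD livers at 10.1 to 24.2 TPM below 35.8 to 40.6 TPM in humanized livers and at 30.1 to 48.2 TPM above 21.7 to 27.0 TPM in WT livers.

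KLHDC2, the closest relative in role, binds C termini that end in a pair of glycines, including those of prematurely ended selenoproteins. In humanized livers KLHDC2 measured 22.5, 23.8, 20.7 and 19.4 TPM with LacZ and 27.5, 20.5, 34.6 and 30.9 TPM with HuR KD. Of the HuR KD livers, 3 of 4 were above every control and liver 2 fell within the control range. The log2 difference was 0.36 (95% interval -0.03 to 0.75, limma adjusted p = 0.473), and the exact two-sided permutation p was 0.114 over 70 groupings, of which the smallest possible was 0.0286. It did not pass the unadjusted threshold, but did so after median-of-ratios scaling (difference 0.44) and without HuR KD 2 (difference 0.50). In WT livers Klhdc2 ranged from 10.9 to 20.8 TPM (median 17.8) with LacZ and from 15.1 to 20.3 TPM (median 17.4) with HuR KD, and the groups overlapped throughout. The log2 difference was 0.02 (95% interval -0.27 to 0.31), and it was -0.10 without LacZ 2, where Klhdc2 rested on 35 reads.

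KLHDC10 binds further C-degrons, among them the alanine tails added to stalled nascent chains in ribosome-associated quality control. It was the single tested member called in either set. In WT livers Klhdc10 measured 25.8, 21.1, 22.0, 27.5, 27.5 and 24.6 TPM with LacZ and 20.004, 19.7, 22.2, 18.5, 19.9 and 19.4 TPM with HuR KD. HuR KD livers were lower in 5 of 6 cases than every control, and HuR KD 3 at 22.2 TPM exceeded LacZ 2 and LacZ 3. The mean fell from 24.7 ± 2.72 to 19.95 ± 1.22 TPM (SD, n = 6 each), 80.6% of control, with a log2 difference of -0.29 (95% interval -0.46 to -0.13). The unadjusted limma p was under 0.05 and the adjusted p was 0.0846, with a range of adjusted p from 0.0106 to 0.191 over 23 alternatives, and the exact two-sided permutation p was 0.00649 over 924 groupings. In humanized livers KLHDC10 measured 20.7, 14.8, 17.4 and 20.2 TPM with LacZ and 18.9, 18.8, 22.2 and 12.4 TPM with HuR KD. The low values of both groups were those of LacZ 2 and HuR KD 4. The difference was -0.03 (95% interval -0.47 to 0.40), so a fall of the size seen in WT livers lies inside the interval.

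The ankyrin receptors gave small differences in both sets. FEM1A measured 3.32, 4.74, 4.39 and 5.66 TPM with LacZ and 3.43, 4.11, 5.54 and 5.23 TPM with HuR KD in humanized livers, a log2 difference of 0.01 (95% interval -0.41 to 0.44). FEM1B, which also serves the response to reductive stress through FNIP1, ranged from 16.1 to 22.4 TPM with LacZ and from 16.2 to 19.1 TPM with HuR KD, a difference of -0.02 (95% interval -0.34 to 0.30). FEM1C ranged from 5.27 to 8.78 TPM with LacZ and measured 5.74, 5.10, 6.63 and 13.1 TPM with HuR KD. Its high value was again that of HuR KD 4, and the highest control was LacZ 2. The FEM1C difference was 0.05 (95% interval -0.55 to 0.65), the widest interval of the 8 members, and -0.11 without these 2 livers.

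In WT livers the ranges of all 3 ankyrin receptors overlapped between groups. Fem1a spanned 14.9 to 18.9 TPM (median 16.5) with LacZ and 16.5 to 22.1 TPM (median 17.8) with HuR KD, a difference of 0.11 (95% interval -0.07 to 0.29). Fem1b spanned 11.5 to 17.5 TPM (median 12.97) and 12.8 to 16.1 TPM (median 14.3), a difference of 0.10 (95% interval -0.10 to 0.31) that passed the unadjusted threshold without LacZ 2 (difference 0.17). Fem1c spanned 5.92 to 9.71 TPM (median 8.74) and 8.21 to 9.62 TPM (median 8.76), a difference of 0.07 (95% interval -0.14 to 0.28). The lowest Fem1c value was that of the shallow LacZ 2 liver, where it rested on 20 reads.

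CUL2 is the scaffold that all 6 receptors share, and it also serves the von Hippel-Lindau protein. In humanized livers CUL2 measured 11.04, 8.40, 11.2 and 7.98 TPM with LacZ and 8.47, 6.97, 9.06 and 7.43 TPM with HuR KD. The groups overlapped, and the log2 difference was -0.24 (95% interval -0.59 to 0.11, limma adjusted p = 0.62). In WT livers Cul2 ranged from 25.4 to 31.4 TPM (median 27.7) with LacZ and from 19.1 to 28.8 TPM (median 27.3) with HuR KD. The difference was -0.14 (95% interval -0.36 to 0.07), and it was -0.07 without HuR KD 6, which had the lowest value. A difference of CUL2 was not detectable beyond the spread in either set.

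The elongin adaptors are shared with CUL5 ligases and, through elongin A, with RNA polymerase II elongation. ELOB was the most abundant member in both sets. In humanized livers it measured 59.7, 70.3, 59.7 and 52.2 TPM with LacZ and 69.9, 78.2, 79.8 and 67.7 TPM with HuR KD. LacZ 2 lay inside the HuR KD range and the other 3 controls below it, and the log2 difference was 0.29 (95% interval -0.01 to 0.59, limma adjusted p = 0.454, exact two-sided permutation p = 0.0857). ELOB passed the unadjusted threshold in 9 of 20 alternatives, for example without LacZ 2 (difference 0.36). In WT livers Elob ranged from 59.4 to 70.3 TPM (median 67.1) with LacZ and measured 77.4, 74.5, 71.8, 73.7, 70.4 and 54.8 TPM with HuR KD. In these livers HuR KD 1 to 5 were above every control and HuR KD 6 was below every control. The difference was 0.09 (95% interval -0.09 to 0.26, limma adjusted p = 0.66), and it was 0.16 and past the unadjusted threshold without HuR KD 6.

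ELOC gave the smallest differences of the set in WT livers. It measured 5.11, 4.71, 4.88 and 5.72 TPM with LacZ and 4.03, 5.40, 5.73 and 4.93 TPM with HuR KD in humanized livers, a log2 difference of -0.02 (95% interval -0.35 to 0.30). In WT livers Eloc ranged from 19.6 to 28.3 TPM (median 25.02) with LacZ and from 19.9 to 28.5 TPM (median 24.9) with HuR KD. The difference was -0.01 (95% interval -0.22 to 0.20).

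**Figure D2:**
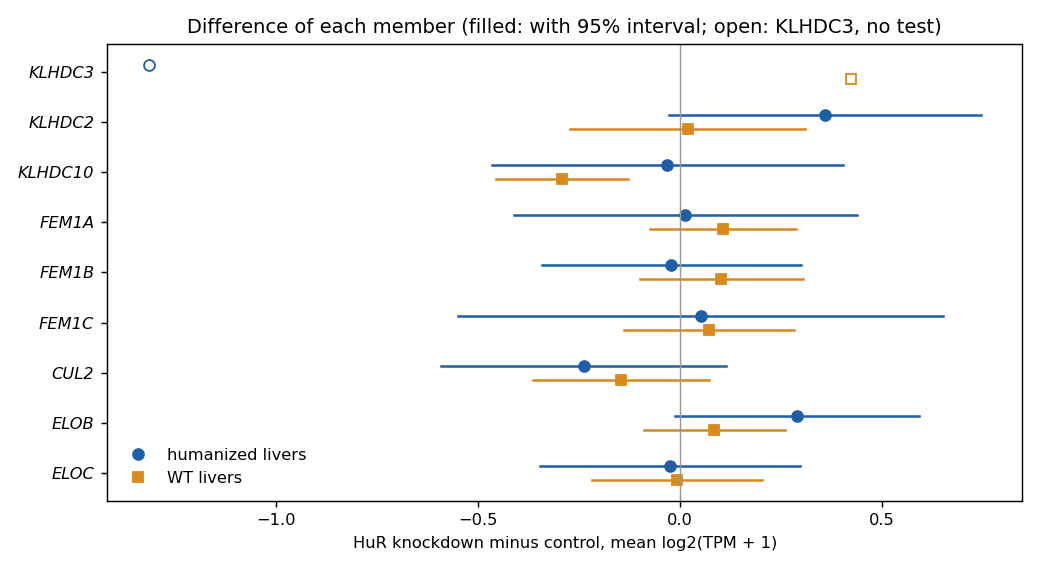
Difference between HuR KD and LacZ livers in mean log2(TPM + 1) for each member, with 95% limma intervals for the 8 tested members, circles for humanized and squares for WT livers. KLHDC3 is drawn open and without an interval at -1.32 and 0.43, and of the 16 intervals only that of Klhdc10 in WT livers, -0.46 to -0.13, leaves out 0.

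Of the 8 tested members, 0 had an unadjusted p under 0.05 in humanized livers, against 11.5% of all genes tested, and 1 did in WT livers, against 16.0%. By limma 0 of the 8 had an adjusted p under 0.05 in either set. Their median log2 difference was -0.0037 in humanized livers, beside -0.05 over all genes, and 0.05 in WT livers, beside 0.03 over all genes. In a joint limma fit of 8202 symbol pairs, 19.7% had an unadjusted p under 0.05 for the difference between the knockdown effects of the 2 sets and 5.01% had an adjusted p under 0.05. Of the 8 members, 0 had an unadjusted p under 0.05 in that fit. The estimates nearest to a call were 0.34 for KLHDC2 (95% interval -0.11 to 0.78, limma adjusted p = 0.417) and 0.26 for KLHDC10 (95% interval -0.12 to 0.64, limma adjusted p = 0.469). Over 33 alternatives some of these estimates passed the unadjusted threshold. That of KLHDC10 did in 2, without humanized HuR KD 4 (0.42, limma adjusted p = 0.103) and without both humanized LacZ 2 and HuR KD 4 (0.33, limma adjusted p = 0.155). That of KLHDC2 did in 4, without humanized HuR KD 2 (0.48), without WT LacZ 2 (0.46), without both WT LacZ 2 and HuR KD 6 (0.48) and by voom on recovered reads (0.52), with limma adjusted p from 0.12 to 0.572 over all 33. That of ELOB did in 1, without both humanized LacZ 2 and HuR KD 4 (0.32). KLHDC10, called in WT livers, was thus not shown to differ between the sets. The 2 alternatives in which its estimate passed the unadjusted threshold left out humanized HuR KD 4.

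The order of levels in LacZ livers differed between the tables at several places. In humanized livers ELOB (60.5 ± 7.46 TPM, SD, n = 4) stood first, KLHDC3 (38.0 ± 2.03) the second and KLHDC2 (21.6 ± 1.95) the third, and each of the first 2 was above the next with no overlap of livers. With TPM rescaled over protein-coding genes alone, the livers of ELOB and KLHDC3 overlapped. KLHDC2, FEM1B (18.3 ± 2.95) and KLHDC10 (18.3 ± 2.75) overlapped and all lay above CUL2 (9.65 ± 1.70). CUL2 and FEM1C (6.96 ± 1.47) overlapped each other, and ELOC (5.10 ± 0.441) and FEM1A (4.53 ± 0.967) closed the order, each overlapping the one before. In WT livers Elob (66.0 ± 3.98 TPM, SD, n = 6) was followed by Cul2 (28.0 ± 2.18), Klhdc3 (24.9 ± 1.99), Eloc (24.8 ± 2.97) and Klhdc10 (24.7 ± 2.72), which overlapped as neighbours. Below all livers of Klhdc10 came Klhdc2 (17.4 ± 3.57), Fem1a (16.9 ± 1.74) and Fem1b (13.6 ± 2.14), which also overlapped, and Fem1c (8.45 ± 1.31), which lay below all livers of Fem1b. Levels across the tables were set by separate normalization and annotation, so no test was made between them.

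KLHDC3 sits in a cluster of close genes. In the mouse annotation Klhdc3 lies at chr17:46674550-46680914 on the minus strand and shares 2122 bases with Mea1, at chr17:46678793-46683111 on the plus strand. The shared bases are of whole gene spans, introns included. The library kit keeps strand, but the strand setting of the counting is not given in the sources used here. How reads in the shared stretch were counted is therefore not known. The part of that stretch in the values of Klhdc3 was not tested. Mea1 measured 35.4, 35.9, 34.5, 34.2, 34.3 and 34.5 TPM in WT LacZ livers and 37.5, 36.8, 34.6, 35.9, 37.3 and 29.5 TPM with HuR KD. The groups overlapped, and the log2 difference was 0.02 (95% interval -0.12 to 0.15). MEA1 in humanized livers measured 8.44, 6.64, 9.85 and 10.97 TPM with LacZ and 10.8, 6.91, 11.7 and 7.92 TPM with HuR KD, a difference of 0.04 (95% interval -0.42 to 0.50).

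On the other side, Rrp36, a factor of ribosomal RNA processing, lies 197 bases from the 3′ end of Klhdc3. It is on the same minus strand, so that its 5′ end faces Klhdc3. Rrp36 rose in WT livers from 15.9 ± 1.57 to 19.0 ± 1.32 TPM (SD, n = 6 each), a log2 difference of 0.25 (SE 0.07, limma adjusted p = 0.112), with overlapping groups. RRP36 gave -0.10 (95% interval -0.44 to 0.24) in humanized livers. CUL7, a cullin that works with an F-box protein, gave -0.36 (95% interval -0.85 to 0.13) in humanized and 0.07 (95% interval -0.13 to 0.26) in WT livers. Of the remaining neighbours, KLC4, a kinesin light chain, gave -0.01 and -0.08, MRPL2, a mitochondrial ribosomal protein, 0.02 and 0.22, and PPP2R5D, a phosphatase subunit, 0.17 and 0.05. Of the 6 neighbours, 0 were called in humanized livers, against 11.5% of all genes tested, and 1, Rrp36, in WT livers, against 16.0%. CUL7 in humanized livers passed the unadjusted threshold without LacZ 2 (-0.53), without both LacZ 2 and HuR KD 4 (-0.44) and with these 2 as their own block (-0.36), and Klc4 in WT livers without HuR KD 6 (-0.14). Mrpl2 in HuR KD 6 measured 108 TPM against 54.1 to 70.7 TPM in the other HuR KD livers, and without that liver the WT difference of Mrpl2 was 0.084.

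**Figure D3:**
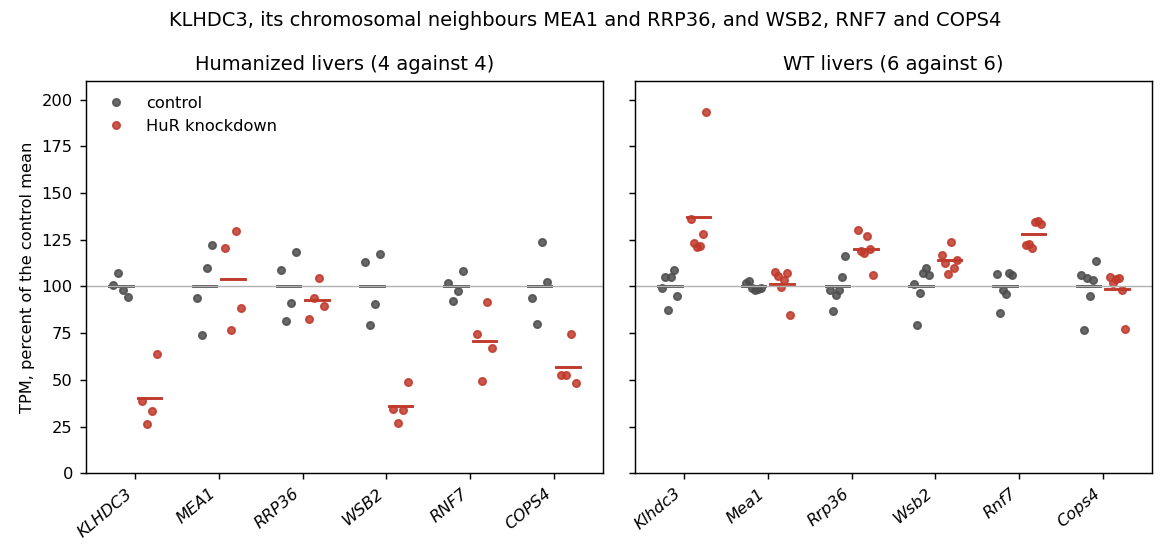
TPM of KLHDC3, MEA1, RRP36, WSB2, RNF7 and COPS4 in each liver as a percent of the LacZ mean of that gene, humanized livers on the left and WT livers on the right. Points are livers, grey for LacZ and red for HuR KD, and bars are means. WSB2 at 36.0% and KLHDC3 at 40.5% of control are the lowest means in humanized livers, MEA1 is at 104%, and in WT livers Klhdc3 and Rnf7 reach 137% and 128%.

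The genes around the ligase were read from 8 lists with 78 symbols, covering other CUL2 receptors, ubiquitin transfer, other cullins, neddylation, the COP9 signalosome, elongin-binding proteins of other ligases, known substrates and the chromosomal neighbours. In humanized livers 7 of 69 tested genes had an unadjusted p under 0.05, 1 higher and 6 lower, and in WT livers 12 of 71, 9 higher and 3 lower. Both counts are near the backgrounds of 11.5% and 16.0%. The median log2 difference of the lists was -0.02 in humanized livers, beside -0.05 over all genes, and 0.03 in WT livers, beside 0.03 over all genes. Of the CUL2 receptors and core outside the set, 0 of 8 were called in humanized livers and 2 of 6 in WT livers. These were Zer1 (log2 difference 0.24), a receptor for N-terminal glycine degrons, and Zyg11a (0.50), both named after their values were seen.

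**Figure D4:**
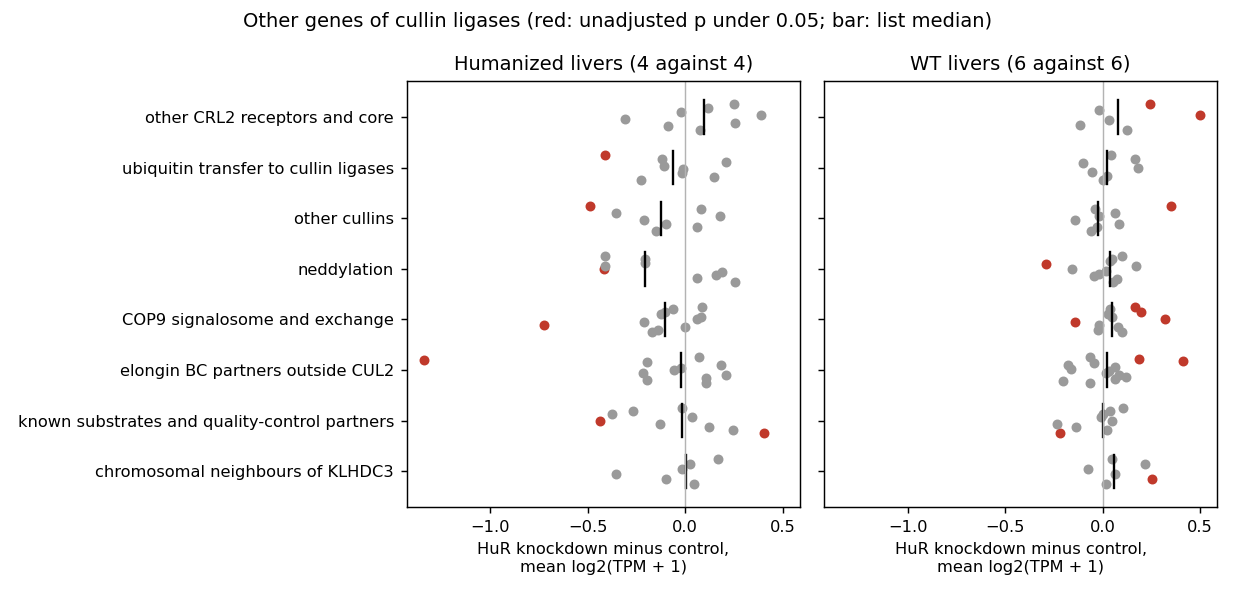
Difference between HuR KD and LacZ livers in mean log2(TPM + 1) for each tested gene of 8 lists, humanized livers on the left and WT livers on the right. Red points had an unadjusted p under 0.05, grey points did not, and black bars are list medians. WSB2 at -1.34 among the elongin-binding proteins lies furthest from 0 in either panel.

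WSB2, a WD40-repeat protein with a SOCS box that binds elongins B and C, stood apart in humanized livers. It measured 18.2, 12.7, 14.5 and 18.9 TPM with LacZ and 5.56, 4.303, 5.47 and 7.81 TPM with HuR KD. Every HuR KD liver was below every LacZ liver, and such separation was a condition for naming a list gene. In humanized livers 5 of 69 list genes lay so, against 5.03% of all genes tested. WSB2 fell to 36.0% of control, a log2 difference of -1.34 (SE 0.19, limma adjusted p = 0.0455), with adjusted p from 0.0123 to 0.172 over 20 alternatives. It was the single list gene with an adjusted p under 0.05 in humanized livers. In WT livers Wsb2 went the other way, from 21.5 ± 2.39 to 24.5 ± 1.28 TPM (SD, n = 6 each), a difference of 0.19 (SE 0.08, limma adjusted p = 0.247), and that call was lost without LacZ 3, HuR KD 1 or HuR KD 4 and after median-of-ratios scaling. The difference between the sets was -1.53 (95% interval -1.90 to -1.15, limma adjusted p = 0.000116).

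RNF7, the RING protein that pairs with CUL5, was called in both sets with opposite signs. RNF7 measured 16.3, 14.8, 15.7 and 17.4 TPM with LacZ and 12.0, 7.97, 14.7 and 10.8 TPM with HuR KD in humanized livers, without overlap. The log2 difference was -0.49 (SE 0.18, limma adjusted p = 0.327), and the call was lost without LacZ 4 (difference -0.45) or HuR KD 2 (-0.35). In WT livers Rnf7 ranged from 29.4 to 36.6 TPM (median 34.9) with LacZ and from 41.2 to 46.1 TPM (median 43.8) with HuR KD, again without overlap. It rose to 128% of control, a difference of 0.35 (SE 0.06, limma adjusted p = 0.0354). The difference between the sets was -0.84 (95% interval -1.18 to -0.50, limma adjusted p = 0.00439).

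COPS4, a subunit of the COP9 signalosome that takes NEDD8 off cullins, fell in humanized livers. It measured 10.2, 8.71, 13.5 and 11.2 TPM with LacZ and 5.75, 5.71, 8.11 and 5.28 TPM with HuR KD, without overlap. The log2 difference was -0.72 (SE 0.18, limma adjusted p = 0.143). Cops4 in WT livers gave -0.02 (95% interval -0.23 to 0.20), and the difference between the sets was -0.70 (95% interval -1.09 to -0.32, limma adjusted p = 0.0287), with an adjusted p of 0.05 or more in 7 of 33 alternatives (highest 0.0715). Of the 11 tested genes of this list, COPS4 was the sole one called in humanized livers, against 11.5% of all genes. In WT livers 4 of 11 were called, against 16.0% of all genes, Cops6 (0.32), Cops8 (0.20) and the exchange factor Cand1 (0.17) higher and the catalytic subunit Cops5 (-0.14) lower, named after their values were seen because their groups overlapped. The call of Cops5 was lost in 15 of 23 alternatives, the replicate block (limma adjusted p = 0.442) among them, and that of Cand1 in 1, without HuR KD 5 (0.15).

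SELENOK, an endoplasmic reticulum selenoprotein whose shortened form KLHDC2 recognises, moved the other way. It measured 8.32, 14.5, 13.3 and 12.4 TPM with LacZ and 15.6, 14.8, 17.8 and 16.1 TPM with HuR KD in humanized livers, so that every HuR KD liver was above every control. The log2 difference was 0.40 (SE 0.17, limma adjusted p = 0.423), and the call was lost in 9 of 20 alternatives, among them leaving out LacZ 1, the lowest control (difference 0.25). Selenok fell in WT livers from 40.8 ± 3.90 to 34.9 ± 2.03 TPM (SD, n = 6 each), a difference of -0.22 (SE 0.07, limma adjusted p = 0.15) with overlapping groups. The difference between the sets was 0.62 (95% interval 0.28 to 0.96, limma adjusted p = 0.0304), with an adjusted p of 0.05 or more in 8 of 33 alternatives (highest 0.0591).

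The remaining calls in humanized livers were lower. DCUN1D1, which helps to place NEDD8 on cullins, measured 14.7, 14.9, 15.0 and 15.1 TPM with LacZ and 9.80, 10.03, 11.4 and 12.7 TPM with HuR KD, a log2 difference of -0.42 (SE 0.13, limma adjusted p = 0.246). ARIH2, a ubiquitin ligase that acts with neddylated CUL5, gave -0.41 (SE 0.15, limma adjusted p = 0.335), also without overlap, and its call was lost without any of LacZ 3, LacZ 4, HuR KD 1 or HuR KD 2. HIF1A, a client of the von Hippel-Lindau receptor, gave -0.44 (SE 0.18, limma adjusted p = 0.398) with overlapping groups and was named after its value was seen. Its call was lost in 11 of 20 alternatives, with all 3 other scalings, the replicate block, voom and 6 of the 8 livers left out in turn. In WT livers the further calls were Dcun1d3 (-0.29) and Wsb1 (0.41), also named after their values were seen. In the fit across sets 14 of 66 list pairs had an unadjusted p under 0.05 and 4 an adjusted p under 0.05, WSB2, RNF7, COPS4 and SELENOK, against 19.7% and 5.01% of all pairs.

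Genes whose profile over the livers of a table was most like that of KLHDC3 were found by the root mean square difference of log2(TPM + 1) after centring each gene, with no p. They were picked on these same livers, so their differences between groups follow from the choice and are no separate result. Among 9926 human protein-coding genes over 8 livers, these were PRELID1, a lipid transfer protein of mitochondria (0.224), SH3GLB1, a membrane-curving endophilin (0.225), and WSB2 (0.230), where the median over all genes was 0.755 and KLHDC3 varied by 0.728 about its own mean. PRELID1 averaged 61.0 TPM with LacZ and 25.7 TPM with HuR KD in humanized livers, 42.2% of control, and SH3GLB1 16.5 and 7.18 TPM, 43.5% of control. Among 11327 mouse genes over 12 livers, they were Gprc5c, an orphan receptor (0.0735), Fbp1, a fructose bisphosphatase of gluconeogenesis (0.0789), and Tspan9, a tetraspanin (0.1001), with a median of 0.342. Gprc5c averaged 34.1 TPM with LacZ and 46.0 TPM with HuR KD and measured 57.1 TPM in HuR KD 6, Fbp1 3550 TPM and Tspan9 32.8 TPM there, each the highest of its 12 livers.

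In bulk tissue fewer cells of a type and less RNA per cell cannot be told apart. Of the 7 hepatocyte markers read, all 7 were listed in humanized and 5 in WT livers and none was at 0, with sums of 39623 to 68549 TPM with HuR KD and 42653 to 89726 TPM with LacZ in humanized livers, and 67494 to 78088 and 62169 to 77077 TPM in WT livers. In the human table all 5 T and NK cell markers were at 0 in every liver, and all 7 macrophage, 5 endothelial and 3 B cell markers averaged under 1 TPM. The 5 stellate markers summed to 2.73 to 4.80 TPM with HuR KD and 5.26 to 7.17 TPM with LacZ, without overlap, 3 of them averaging under 1 TPM, and the 5 cholangiocyte markers to 5.26 to 29.4 TPM (median 8.25) and 11.5 to 44.4 TPM (median 30.9), lower in median with HuR KD but with overlap. In WT livers the 7 macrophage markers summed to 292 to 507 TPM with HuR KD and 414 to 560 TPM with LacZ, and 0 of the 7 averaged under 1 TPM. The sums of the other marker lists overlapped between groups in both sets. The part of these lists in the values of KLHDC3 or Klhdc10 was not tested.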

How the data were processed

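Both tables were deposited by the authors as TPM per gene and liver, and the TPM of each library sum to 1000000. Per the labels and the study's methods, stranded total RNA libraries were trimmed, aligned with HISAT2 to the mouse genome or, for humanized livers, to a joint human and mouse genome (GRCh38 and mm10), and counted with featureCounts. Fractions of reads lost to the other species are not given in the sources used here.

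Groups came from the sample titles, and no value column was left unmapped (0 columns). TPM were analysed as log2(TPM + 1) in genes with a mean of at least 1 TPM, with limma 3.58.1 (lmFit, eBayes with trend) in R 4.3.3, for each table and jointly over gene symbols. Exact two-sided permutation tests used scipy 1.17.1. Whole reads behind the TPM were recovered from their ratios between at least 4 libraries within 0.02 reads, for all 18702 human and 25110 mouse genes with enough libraries (100%), and served for depth and counting intervals (95%) and for voom as an alternative. The limma step was tested on simulated data. With 200 of 12738 (humanized) or 15090 (WT) genes shifted by 1.5 log2, 98.0% and 99.5% of the shifted genes passed an unadjusted p of 0.05. The shifted genes were drawn from the better expressed ones, with independent normal noise. The shift was larger than the difference of any tested member, so these shares do not give the power for the members.

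Alternatives were a pseudocount of 0.1, no filter, a filter of 5 TPM, 3 other scalings, no trend, array weights, the replicate block, voom and each liver left out. Members and lists were chosen with earlier results of these data known. Genes outside the 9 members were named if p was under 0.05 and groups did not overlap (at most 4 per list), as chromosomal neighbours of KLHDC3, or as the 3 nearest profiles per table.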

Additional observations from a re-analysis of the deposited data

Results flagged for a closer look

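KLHDC3 moved in opposite directions in the 2 sets, with every humanized HuR KD liver below every control and every WT HuR KD liver above every control. The difference between the sets was -1.74, and it was not tested.

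A test of the difference between the sets passed an adjusted p of 0.05 for WSB2 (-1.53), RNF7 (-0.84), COPS4 (-0.70) and SELENOK (0.62), each as the humanized minus the WT log2 difference. These were 4 of 66 list pairs, near the 5.01% of all pairs that passed. Over 33 alternatives the adjusted p of COPS4 was 0.05 or more in 7 and that of SELENOK in 8.

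In 4 of 40 groups of members and HuR, a liver stood apart from its group by Dixon's 95% value, which chance gives in about 1 of 20 groups. All were in the WT set and in 2 livers. HuR KD 6 was the highest for Klhdc3 (48.2 TPM, others 30.1 to 33.8) and for Fem1a (22.1 TPM, others 16.5 to 18.4) and the lowest for Elob (54.8 TPM, others 70.4 to 77.4). LacZ 2, the shallowest liver, was the lowest for Fem1c (5.92 TPM, others 8.48 to 9.71).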

How the results depend on the processing

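The KLHDC3 difference ran from -1.55 to -1.15 over 20 alternatives in humanized livers and from 0.32 to 0.46 over 23 in WT livers. These ranges describe its size alone. Its groups did not overlap and the gene was chosen for this difference, so leaving livers out could not change its sign. Klhdc10 in WT livers stayed past the unadjusted threshold in all 23. The count of called members was 0 in humanized livers and rose to 1 with a pseudocount of 0.1, no filter, array weights, voom, LacZ 2 and HuR KD 4 as their own block or both left out, and to 2 with median-of-ratios, quantile or protein-coding scaling, the members being ELOB and KLHDC2. It ran from 0 to 1 when single livers were left out. Over all genes, 1461 of 12738 were called in the main fit. With median-of-ratios, quantile and protein-coding scaling, 1652 of 12730, 1645 of 12738 and 1593 of 11307 were. In WT livers the count of called members was 1, beside 16.0% of all genes. It was 3 with array weights, 2 with voom or without both LacZ 2 and HuR KD 6, and 1 to 2 when single livers were left out. Between the sets, 0 members were called, beside 19.7% of all pairs, and KLHDC2 was in 4, KLHDC10 in 2 and ELOB in 1 of 33 alternatives. List genes called in humanized livers were 7 of 69, beside 11.5% of all genes. They were 3 to 9 when single livers were left out, with 4 without LacZ 4 or HuR KD 1 and 3 without HuR KD 2. The causes were not tested. The alternatives that leave out 2 livers or set them as a block were added after seeing the data.

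The sample titles do not say whether equal replicate numbers mark pairs, and correlations over so few livers cannot settle it. Same-numbered deviations correlated from -0.36 to 0.251 in humanized and from -0.195 to 0.333 in WT livers, 2 of 4 and 2 of 6 were over 0.1, and 0 of 4 and 2 of 6 livers matched their own number best. With the replicate block, genes with an unadjusted p under 0.05 went from 1461 to 1401 (adjusted, 27 to 0) and from 2418 to 2242 (adjusted, 134 to 17). With each number once per group, the block could not move the KLHDC3 differences of -1.32 and 0.43.

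Uncalled differences near 0 changed sign. Median-of-ratios scaling gave KLHDC10 0.049, FEM1B 0.058, ELOC 0.046 and KLC4 0.065 in humanized livers, FEM1C 0.059 and ELOC 0.062 between the sets. Quantile normalization gave KLHDC10 0.041, FEM1B 0.046, ELOC 0.043 and KLC4 0.047 in humanized livers, FEM1C 0.052 and ELOC 0.049 between the sets. Protein-coding scaling gave KLHDC10 0.053, FEM1B 0.064, ELOC 0.054 and KLC4 0.071 in humanized livers, Eloc 0.0032 in WT livers, FEM1C 0.049 and ELOC 0.051 between the sets. Voom gave KLHDC10 0.0046, FEM1B 0.021, ELOC 0.059, RRP36 0.0045 and KLC4 0.065 in humanized livers, Klhdc2 -0.078 in WT livers, FEM1A 0.027, FEM1C 0.19 and ELOC 0.094 between the sets. Leaving out humanized LacZ 2 and HuR KD 4 gave KLHDC10 0.038, FEM1A -0.021, FEM1B 0.062, FEM1C -0.11, MEA1 -0.017 and KLC4 0.040 in humanized livers. Array weights gave FEM1B 0.013 and KLC4 0.053 in humanized livers, Klhdc2 -0.11 and Eloc 0.0072 in WT livers. Leaving out WT LacZ 2 and HuR KD 6 gave Klhdc2 -0.12 in WT livers, FEM1C 0.051 between the sets.

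With single livers left out, these ranges also crossed 0: in humanized livers KLHDC10 -0.13 to 0.13, FEM1A -0.10 to 0.12, FEM1B -0.076 to 0.076, FEM1C -0.21 to 0.19, ELOC -0.081 to 0.060, MEA1 -0.078 to 0.16, KLC4 -0.15 to 0.18 and MRPL2 -0.097 to 0.22, in WT livers Klhdc2 -0.10 to 0.074, Fem1c -0.014 to 0.11, Eloc -0.070 to 0.050, Arih2 -0.0051 to 0.062, Cops4 -0.088 to 0.046, Mea1 -0.0027 to 0.065 and Ppp2r5d -0.018 to 0.097, and between the sets FEM1A -0.21 to 0.012, FEM1C -0.28 to 0.12 and ELOC -0.075 to 0.067.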
